A study of Mus musculus with 24 samples.

Results

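The genes described here encode J-domain proteins, the co-chaperones that serve HSP70, together with 5 further helpers of HSP70 and HSP90. Members were taken by name: every Dnaja, Dnajb and Dnajc gene except the endoplasmic reticulum (ER) members Dnajb9, Dnajb11, Dnajc3 and Dnajc10, plus Chordc1, Stip1, Ahsa1, Bag3 and Cryab. Of 47 genes that fit this rule in the platform annotation, 42 had a probe set that names a single gene (37 Dnaj genes and the 5 additions), out of 22180 genes measured that way. Dnaja1, Dnajb8, Dnajc17, Dnajc19 and Dnajc19-ps had only probe sets shared with other genes and were not analysed here.

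HSP70 binds unfolded stretches of protein in a cycle driven by ATP. The J domain of a J protein docks on HSP70 and triggers ATP hydrolysis, which closes HSP70 on its client, and the rest of the J protein decides which client or which place in the cell is served. Nucleotide exchange factors such as BAG3 reopen HSP70, STIP1 passes clients on to HSP90, and AHSA1 speeds the ATPase of HSP90. In heart muscle this network looks after the proteins of the contractile apparatus, and several of its genes are targets of heat shock factor 1.

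Heart muscle was collected from male wild-type C57Bl/6 mice, 8 weeks old, without any treatment, under 12 h of light and 12 h of dark. The 6 groups were zeitgeber times (ZT, hours after lights-on) ZT03, ZT07 and ZT11 (light phase) and ZT15, ZT19 and ZT23 (dark phase), each with 4 arrays that the labels call biological replicates. RNA from snap-frozen tissue was labelled from 500 ng and hybridised to Affymetrix mouse gene arrays, with 1 array for each sample's RNA. The comparisons ask which co-chaperone transcripts vary over the day, at what time each is highest and how dark differs from light.

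Every value below is a log2 difference from the gene's own median over the 24 arrays, with base 2 assumed because the files do not state it. No level is kept, so dim genes cannot be told from bright ones, and the presence of heart muscle markers could not be checked. The SD over all probe sets of an array ran from 0.103 to 0.171. ZT15 replicate 1, ZT23 replicate 4 and ZT07 replicate 4 had the lowest weights of the 24 arrays (0.499, 0.573 and 0.640, where 1 is average). All mice were kept under the light and dark schedule, so effects of light and of the clock cannot be told apart. The day was sampled over a single cycle, so whether a pattern repeats was not tested, and no batch is given in the labels. In whole tissue, fewer cells of a type and less RNA per cell cannot be told apart.

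A small number of members changed over the day, and all but 1 of those had their peak in the dark. Limma's moderated test for a 24-h cosine called 8 of the 42 members (19%), against 7.61% of all genes. The 8 were Chordc1, Dnajb1, Dnajb5, Dnajc4, Dnajb14, Stip1, Dnajb4 and Dnajc1. A peak in the dark was called in 7 of the 42, against 3.78% of all genes, and a peak in the light in 1, Dnajb14, against 3.83%. The median peak-to-trough change over all 42 was 1.08-fold, beside 1.06-fold over all genes tested. The set did not shift as a whole: 21 of the 42 (50%) had a higher mean at night by sign alone, against 51.9% of all genes, and the median night-minus-day difference was -0.00003.

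The promoters of Chordc1, Dnajb4, Dnajb6 and Dnaja4 are shown because the letters of a heat shock element fall within the stretch printed. That of Dnajb1, at the first of its annotated starts, was added by name as a strong rhythm without those letters. They were also missing at its other start and in the rhythmic members Dnajb5, Dnajc4, Dnajb14, Stip1 and Dnajc1. Heat shock factor 1 binds inverted repeats of GAA and TTC, so the windows were searched for a pair (GAANNTTC or TTCNNGAA, each its own reverse complement) and for a triple (GAANNTTCNNGAA or TTCNNGAANNTTC), whose letters also count as pairs. Sequences are from RefSeq (GRCm38.p6), 5′ to 3′ on the strand of the gene, from 130 bases before the annotated start to 20 bases of transcript, and capitals mark the GAA and TTC blocks of each match.
Chordc1, chr9:18292137-18292286, plus strand: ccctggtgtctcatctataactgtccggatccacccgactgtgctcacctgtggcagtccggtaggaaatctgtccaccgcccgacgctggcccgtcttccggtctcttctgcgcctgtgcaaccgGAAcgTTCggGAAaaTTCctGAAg
Dnajb4, chr3:152193826-152193975, minus strand: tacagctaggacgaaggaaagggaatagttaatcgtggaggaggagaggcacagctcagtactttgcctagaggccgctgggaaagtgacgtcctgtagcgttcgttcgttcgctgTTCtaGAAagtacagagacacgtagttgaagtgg
Dnajb6, chr5:29735768-29735917, plus strand: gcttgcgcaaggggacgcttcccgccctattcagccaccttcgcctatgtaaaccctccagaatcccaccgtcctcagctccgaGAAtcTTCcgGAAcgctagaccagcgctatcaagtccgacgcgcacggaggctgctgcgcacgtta
Dnaja4, chr9:54699429-54699578, plus strand: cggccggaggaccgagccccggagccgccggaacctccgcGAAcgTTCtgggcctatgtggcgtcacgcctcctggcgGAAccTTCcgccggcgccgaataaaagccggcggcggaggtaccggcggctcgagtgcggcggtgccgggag
Dnajb1, chr8:83608045-83608194, plus strand: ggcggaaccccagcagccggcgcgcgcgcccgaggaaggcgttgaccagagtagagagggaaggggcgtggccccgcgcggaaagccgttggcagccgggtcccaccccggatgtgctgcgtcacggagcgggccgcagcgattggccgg

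In the Chordc1 window 5 alternating blocks run without a break across the annotated start, from 4 bases before it. The Dnajb4 window holds a single pair 14 bases before one of its starts, the Dnajb6 window a triple 46 bases before the first of its starts, and the Dnaja4 window separate pairs 90 and 52 bases before it. RefSeq promoter windows (250 bases before to 50 after a start) were matched for 33 of the 42 members, including all 8 with a rhythm. A pair was found in 7 of these 33 genes (21.2%), against 17.0% of all 27025 genes with a window. By rhythm, 2 of the 8 rhythmic members (Chordc1 and Dnajb4) and 5 of the 25 others (Bag3, Dnaja4, Dnajb6, Dnajc27 and Dnajc5g) held one. The triple was found in Chordc1 and Dnajb6 among the members (6.06% of the 33 genes), against 0.662% of all genes with a window and 0.603% of all 32851 windows. Dnajb6, with its triple, had a peak-to-trough change of 1.02-fold (adjusted p = 0.898) and Dnaja4 of 1.07-fold (adjusted p = 0.781), neither past the threshold. Dnajb6 and Dnaja4 were printed, like Chordc1 and Dnajb4, for a match within the stretch shown. All the printed promoters were chosen for display with the members' values already seen. The clock's E-box (CACGTG, its own reverse complement) was found in Dnajc1, Dnajc16 and Dnajc8 (9.09% of the 33 genes), near the 8.09% of all genes with a window. The D-box (TTATGTAA or TTATGCAA on either strand) was found in no member window and in 1.66% of all windows. A match is a run of letters only, and binding was not measured here.

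Class B J proteins include the stress-inducible HSP40 proteins, partners of cytosolic HSP70. Those listed here held 3 of the 8 rhythms among 8 measured members. Dnajb12 and Dnajb14, also class B by name, were listed with the ER membrane J proteins below. Dnajb14 had a rhythm, with its peak in the light. Dnajb1 encodes the major HSP40 of the cytosol. In replicates 1 to 4, the Dnajb1 value was -0.20, -0.18, -0.13 and -0.14 at ZT03, then -0.17, -0.18, -0.041 and -0.22 at ZT07, then -0.29, 0.048, -0.094 and -0.092 at ZT11. Its dark-phase values were 0.27, 0.48, 0.28 and 0.30 at ZT15, then 0.25, 0.15, 0.28 and 0.14 at ZT19, then 0.089, 0.041, -0.080 and 0.37 at ZT23. All 8 arrays of ZT15 and ZT19 lay above all 12 light arrays, while ZT23 overlapped with the light phase. The 24-h amplitude, which is the peak minus the mean, was 0.25 ± 0.036 (SE, 24 arrays), a 1.42-fold change from trough to peak, with the peak at ZT17.7 ± 0.539 (SE, in h) (adjusted p = 0.000135).

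Dnajb5 encodes a close relative of DNAJB1 and DNAJB4. Dnajb5 values of the light phase were -0.54, -0.16, -0.52 and -0.44 at ZT03, then -0.13, -0.11, -0.42 and -0.33 at ZT07, then -0.010, -0.25, -0.12 and 0.094 at ZT11. In the dark phase they read 0.19, 0.024, 0.13 and 0.11 at ZT15, then 0.051, 0.21, 0.071 and 0.010 at ZT19, then 0.025, 0.069, -0.066 and 0.074 at ZT23. The 12 dark arrays lay above all 8 arrays of ZT03 and ZT07, and ZT11 lay between and overlapped with both. The light-phase means of Dnajb5 were -0.41 ± 0.18 (SD, n = 4) at ZT03, -0.25 ± 0.15 at ZT07 and -0.072 ± 0.15 at ZT11, whereas those of Dnajb1 lay between -0.17 and -0.11. Its amplitude was 0.25 ± 0.038 (1.41-fold) with a peak at ZT17.0 ± 0.585 (adjusted p = 0.000348).

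Dnajb4, another cytosolic HSP40, peaked earliest of the 7 genes with a peak in the dark, at ZT14.3 ± 0.854 (1.23-fold, amplitude 0.15 ± 0.034, adjusted p = 0.0153). Dnajb4 values of the light phase were -0.39, -0.043, -0.20 and -0.18 at ZT03, then -0.0032, 0.12, -0.21 and -0.13 at ZT07, then 0.13, 0.11, 0.24 and -0.11 at ZT11. Those of the dark phase were 0.15, 0.18, 0.042 and 0.24 at ZT15, then 0.0032, -0.076, 0.025 and -0.011 at ZT19, then 0.021, 0.099, -0.066 and -0.22 at ZT23. ZT11 and ZT15 were both high and overlapped, so this gene spanned lights-off, and the 4 arrays of ZT15 lay above all 4 of ZT03. The call was lost without the 3 arrays of lowest weight (adjusted p = 0.0536).

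The other 5 class B members listed here were Dnajb2, Dnajb3, Dnajb6, Dnajb7 and Dnajb13. Their changes were 1.01- to 1.10-fold, with adjusted p-values of 0.207 to 0.994. The 3 measured class A members, which resemble the bacterial DnaJ most closely, did not pass either. Dnaja2, a cytosolic partner of constitutive HSP70, had 1.08-fold (adjusted p = 0.272), and Dnaja3, which works in mitochondria, had 1.06-fold. The probe sets of Dnaja3 placed their peaks at ZT1.44, ZT1.22 and ZT9.92, none past the threshold (lowest adjusted p = 0.107).

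**Figure D1:**
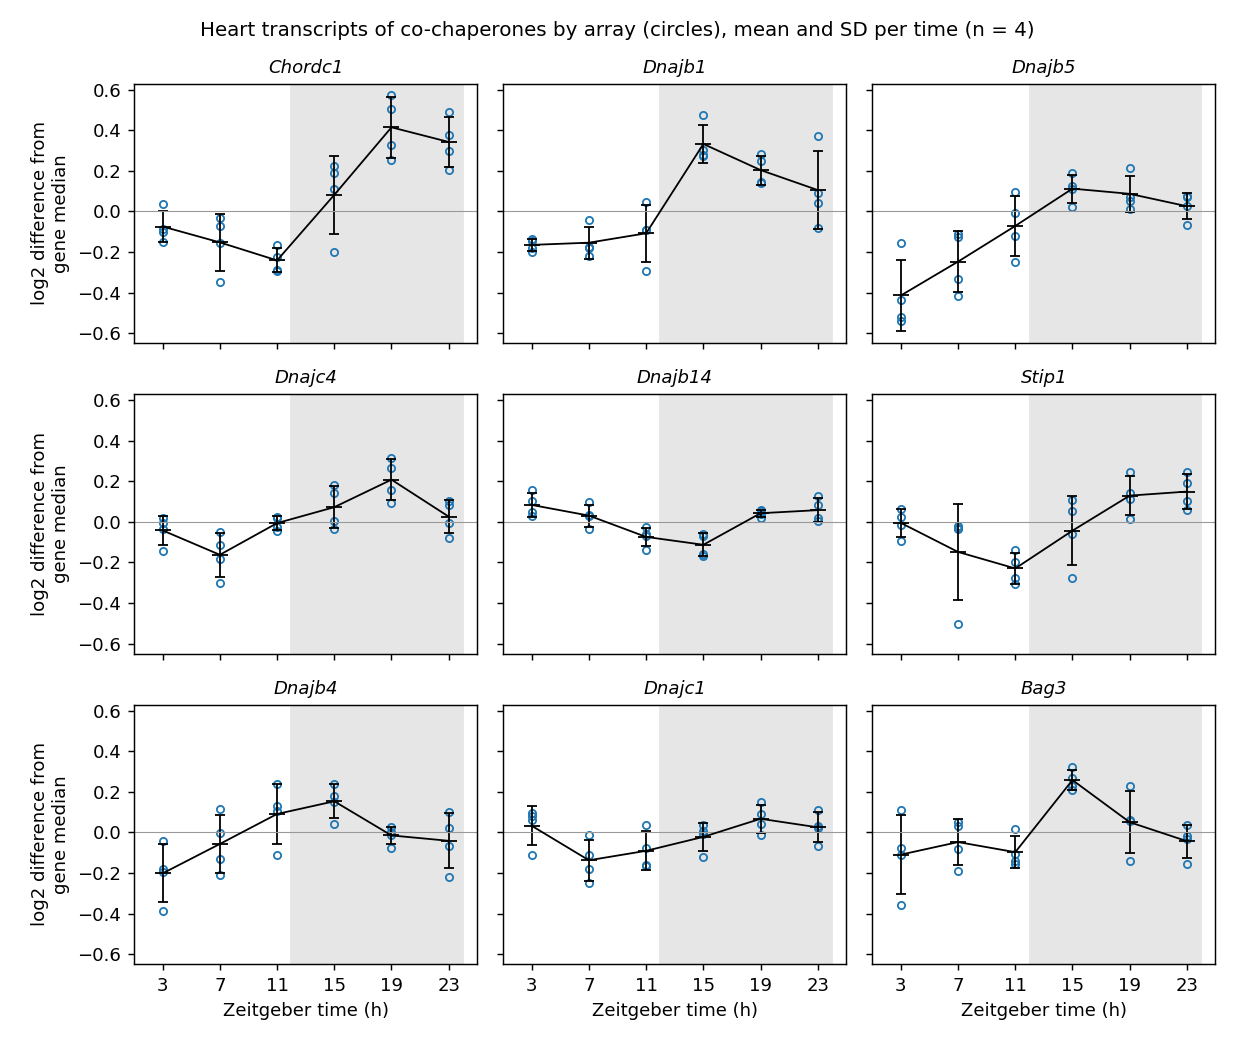
Log2 difference from the gene's median (vertical axis) against zeitgeber time in h (horizontal axis) for the 8 rhythmic members and Bag3. Circles are single arrays, lines join the time means and bars are SD (n = 4 per time). The dark phase is shaded. Dnajb1 and Bag3 have their highest mean at ZT15, Chordc1 and Dnajc4 at ZT19 and Stip1 at ZT23, and Dnajb14 has its lowest at ZT15.

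Among the named additions, Chordc1 had the largest change of all 42 members. CHORDC1 (CHP-1 or Morgana) is a zinc-binding co-chaperone of HSP90. Chordc1 values of the light phase were 0.035, -0.085, -0.100 and -0.15 at ZT03, then -0.073, -0.035, -0.35 and -0.16 at ZT07, then -0.29, -0.22, -0.29 and -0.17 at ZT11. Its dark-phase values were -0.20, 0.19, 0.11 and 0.22 at ZT15, then 0.25, 0.33, 0.51 and 0.57 at ZT19, then 0.49, 0.38, 0.30 and 0.20 at ZT23. All 8 arrays of ZT19 and ZT23 lay above all 12 light arrays, and at ZT15 replicate 1, the array of lowest weight, lay among the light arrays while the other 3 lay above them. The amplitude was 0.34 ± 0.038 (1.59-fold), with the peak at ZT20.4 ± 0.430 (adjusted p = 7.60e-06).

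Stip1 encodes HOP, the adaptor that holds HSP70 and HSP90 at once. Stip1 values of the light phase were 0.065, 0.023, -0.093 and -0.014 at ZT03, then -0.022, -0.032, -0.037 and -0.50 at ZT07, then -0.14, -0.20, -0.30 and -0.28 at ZT11. In the dark phase they read -0.28, 0.11, -0.059 and 0.053 at ZT15, then 0.014, 0.14, 0.11 and 0.25 at ZT19, then 0.19, 0.25, 0.10 and 0.057 at ZT23. The 4 arrays of ZT11 lay below all 8 of ZT19 and ZT23, ZT03 overlapped with the dark phase, and ZT07 replicate 4 lay far below the other 3 arrays of its time. The amplitude was 0.19 ± 0.035 (1.30-fold) with a peak at ZT21.6 ± 0.700 (adjusted p = 0.00255). This 24-h call held under every alternative run, and the amplitude was 0.17 without ZT07 replicate 4.

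Bag3, which encodes the exchange factor that directs HSP70 clients of striated muscle to autophagy, was highest at ZT15. Bag3 values of the light phase were -0.36, 0.11, -0.077 and -0.11 at ZT03, then 0.051, 0.032, -0.084 and -0.19 at ZT07, then -0.11, -0.16, -0.14 and 0.017 at ZT11. It reached 0.27, 0.32, 0.23 and 0.21 at ZT15, and was at 0.23, 0.060, -0.14 and 0.055 at ZT19 and at -0.017, -0.16, -0.033 and 0.035 at ZT23. Outside ZT15, only ZT19 replicate 1 came within the range of the ZT15 arrays. Its 24-h cosine missed the threshold (1.21-fold, ZT16.2, adjusted p = 0.0723), but it passed the test for any difference among the 6 times (adjusted p = 0.0419).

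Cryab and Ahsa1 did not pass any test. Cryab encodes αB-crystallin, a small heat shock protein of the Z-disc region, and had 1.13-fold (adjusted p = 0.376), with adjusted p-values of 0.435 and 0.409 in its 2 probe sets. Its mean was lowest at ZT07, -0.16 ± 0.052 (SD, n = 4), and highest at ZT23, 0.13 ± 0.086. Ahsa1 had 1.10-fold (adjusted p = 0.661), and its highest value, 0.52, came from ZT15 replicate 1.

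Of the 7 J proteins of the ER membrane and secretory pathway, 2 had a rhythm, with a peak just after lights-on in Dnajb14 and late in the dark in Dnajc1. Dnajb14 encodes a J protein anchored in the ER membrane with its J domain toward the cytosol. Dnajb14 values of the light phase were 0.048, 0.16, 0.028 and 0.10 at ZT03, then 0.029, -0.035, 0.099 and 0.032 at ZT07, then -0.14, -0.061, -0.072 and -0.027 at ZT11. Those of the dark phase were -0.17, -0.057, -0.16 and -0.069 at ZT15, then 0.053, 0.059, 0.021 and 0.039 at ZT19, then 0.0024, 0.082, 0.020 and 0.13 at ZT23. The 8 arrays around lights-off, at ZT11 and ZT15, lay below all 12 arrays of ZT19, ZT23 and ZT03, with ZT07 overlapping. The amplitude was 0.095 ± 0.017 (1.14-fold) with a peak at ZT1.27 ± 0.674 (adjusted p = 0.00172). Of its 2 probe sets, 1 passed (1.19-fold, peak at ZT1.63, adjusted p = 0.0268) and the other did not (1.10-fold, ZT0.601, adjusted p = 0.107).

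Dnajc1 encodes ERdj1, a membrane J protein that recruits the ER HSP70 BiP. Dnajc1 values of the light phase were 0.082, 0.095, 0.063 and -0.11 at ZT03, then -0.011, -0.18, -0.25 and -0.11 at ZT07, then 0.039, -0.16, -0.076 and -0.16 at ZT11. Its dark-phase values were -0.12, -0.0069, 0.0069 and 0.036 at ZT15, then 0.041, -0.014, 0.15 and 0.093 at ZT19, then 0.11, 0.023, 0.034 and -0.069 at ZT23. The groups overlapped widely, and the lowest array was at ZT07. Its cosine passed narrowly (1.14-fold, peak at ZT21.1 ± 1.01, adjusted p = 0.0475), and leaving out any single one of 16 arrays ended the call (highest adjusted p = 0.0926 over all alternatives). Dnajb12, Dnajc14, Dnajc16, Dnajc18 and Dnajc25 had 1.04- to 1.13-fold, with adjusted p-values from 0.115 to 0.834.

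Dnajc4 was the only rhythm called among the 5 J proteins listed for mitochondria. Dnajc4 values of the light phase were 0.018, -0.037, -0.0075 and -0.14 at ZT03, then -0.048, -0.18, -0.12 and -0.30 at ZT07, then -0.023, 0.024, 0.021 and -0.045 at ZT11. In the dark phase they read -0.036, 0.0049, 0.14 and 0.18 at ZT15, then 0.096, 0.31, 0.16 and 0.27 at ZT19, then -0.0049, 0.10, 0.086 and -0.077 at ZT23. The 4 arrays of ZT19 lay above all 12 light arrays, and ZT15 and ZT23 overlapped with them. The amplitude was 0.15 ± 0.026 (1.23-fold) with a peak at ZT18.4 ± 0.651 (adjusted p = 0.00120). Dnajc28 had 1.08-fold (adjusted p = 0.409), and none of it, Dnajc11, Dnajc15 and Dnajc30 passed. Dnajc15, a J protein of the inner mitochondrial membrane, had the largest fold of these, 1.16-fold, but also the widest spread of all members, with a median SD of 0.249 within a time.

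The remaining 14 members, class C J proteins whose J domain sits in otherwise unrelated proteins, had no rhythm called. Dnajc13, Dnajc24 and Dnajc12 had an unadjusted p below 0.05 in the 24-h test. Dnajc13, which encodes the endosomal sorting protein RME-8, came closest, with 1.14-fold and a peak in the light at ZT6.73 (adjusted p = 0.0736). Dnajc5b, a testis-enriched relative of the synaptic cysteine string protein Dnajc5, had 1.06-fold, and Dnajc5, Dnajc5g and Dnajc6 did not pass either. Among those of the ribosome, translation, splicing and nucleus, Dnajc24, needed for the diphthamide of elongation factor EF2, had 1.15-fold (ZT5.09, adjusted p = 0.0964). Dnajc8, a protein of the spliceosome, had 1.14-fold (adjusted p = 0.619), and Dnajc2, Dnajc9 and Dnajc21 had 1.01- to 1.08-fold. Dnajc12, a co-chaperone of aromatic amino acid hydroxylases, had 1.11-fold (adjusted p = 0.155), Dnajc22 had 1.08-fold (adjusted p = 0.557), and Dnajc7 and Dnajc27 had 1.06-fold each.

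The threshold fell between Dnajc1 (adjusted p = 0.0475) on one side and Bag3 (0.0723) and Dnajc13 (0.0736) on the other. Peaks of the 7 dark-phase genes ran in the order Dnajb4 (ZT14.3), Dnajb5 (ZT17.0), Dnajb1 (ZT17.7), Dnajc4 (ZT18.4), Chordc1 (ZT20.4), Dnajc1 (ZT21.1) and Stip1 (ZT21.6). Neighbours in this order lay within the sum of their SEs, except for Dnajb4 before Dnajb5 and Dnajc4 before Chordc1. The differences between peak times were not tested.

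**Figure D2:**
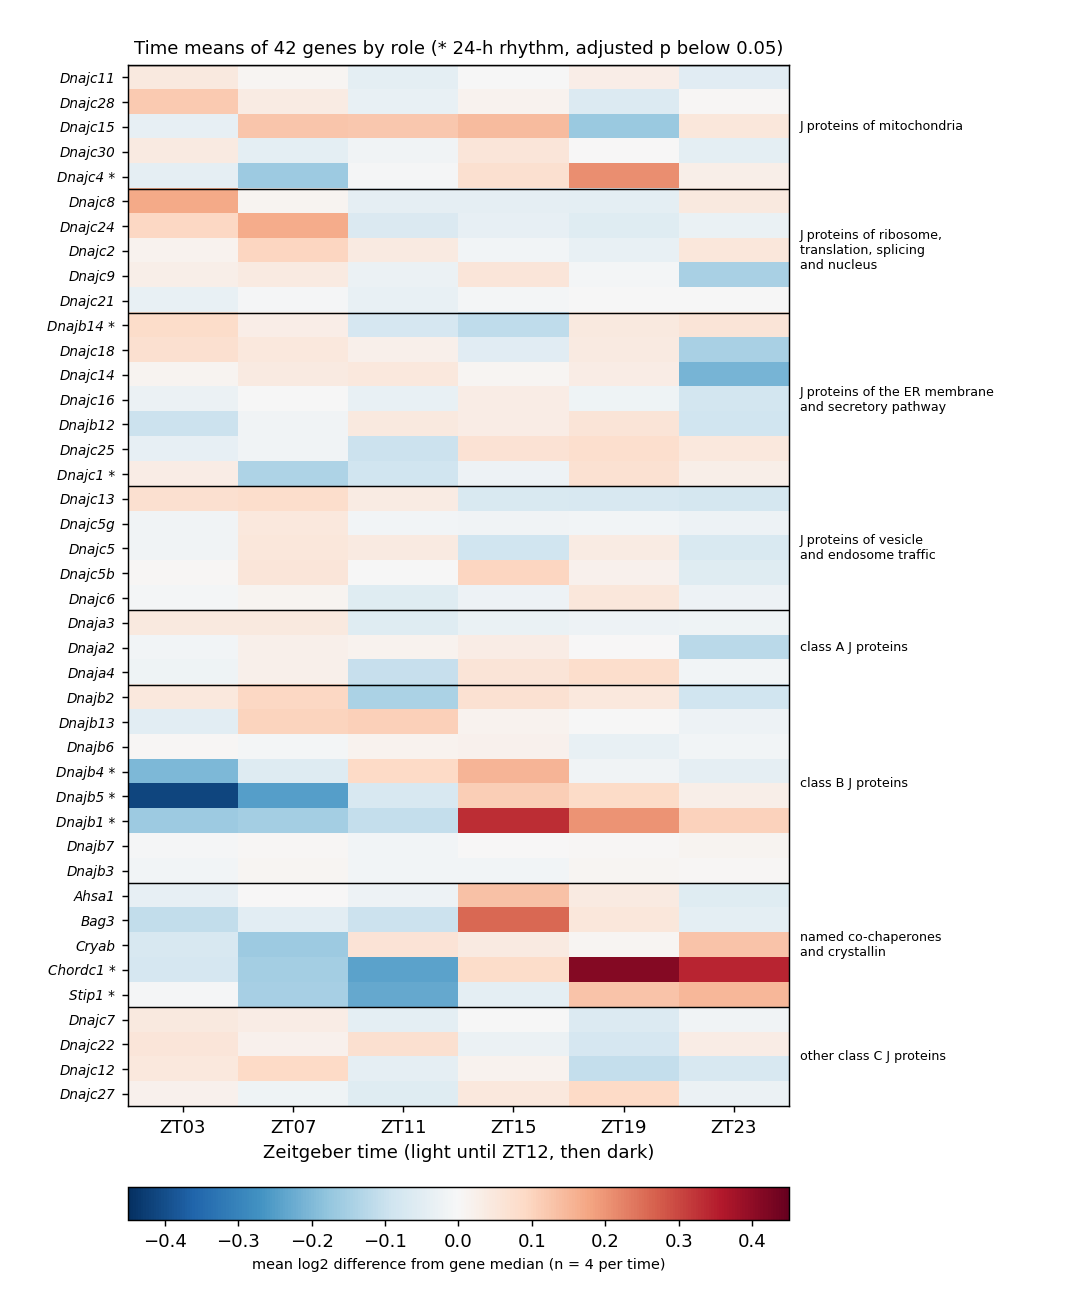
Mean log2 difference from the gene's median (colour; red above, blue below; n = 4 per time) for the 42 members, in rows grouped by role, at the 6 zeitgeber times in columns. Asterisks mark the 8 genes with a 24-h rhythm. Chordc1 at ZT19 (0.41) and Dnajb5 at ZT03 (-0.41) have the strongest colours, and most rows are pale at all times.

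The test for any difference among the 6 times, which assumes no wave shape, called 6 members against 4.72% of all genes. They were Chordc1 (adjusted p = 8.49e-05), Dnajb1 (0.000365), Dnajb5 (0.00109), Dnajc4 (0.00840), Dnajb14 (0.00927) and Bag3 (0.0419). Of the members with a 24-h rhythm, Stip1 lay just outside (0.0501), and Dnajb4 (0.0868) and Dnajc1 (0.175) did not pass either. A 12-h component beside the 24-h wave was called by limma in 0 members and in 0 of all genes (0%), with 2 members and 1402 genes at an unadjusted p below 0.05. No other tool was run.

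The night against day comparison set the mean of ZT15, ZT19 and ZT23 against that of ZT03, ZT07 and ZT11. Higher RNA at night was called in 6 members against 1.89% of all genes, and lower RNA at night in 0 members against 2.49% (4.39% in either direction). Chordc1 was 1.35-fold higher at night (log2 difference 0.44 ± 0.051 (SE), adjusted p = 2.16e-05). Dnajb1 was 1.28-fold higher (0.36 ± 0.045, adjusted p = 4.50e-05) and Dnajb5 1.25-fold higher (0.32 ± 0.048, adjusted p = 0.000323). Stip1 (1.15-fold, adjusted p = 0.0250), Bag3 (1.13-fold, adjusted p = 0.0389) and Dnajc4 (1.13-fold, adjusted p = 0.00492) made up the 6. The Stip1 call was lost without ZT11 replicate 3 (adjusted p = 0.0501). All 5 named additions had a higher mean at night, though Cryab and Ahsa1 did not pass. By sign alone, 16 of the 37 Dnaj genes had a higher mean at night (43.2%), against 51.9% of all genes, and 3 of the 37 passed. The lowest difference was that of Dnajc13, at -0.14 ± 0.039 (adjusted p = 0.0503). The Bag3 call did not hold when 15 of the 24 arrays were left out singly, nor in 3 other settings, with adjusted p-values from 0.0112 to 0.119 over all of them.

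**Figure D3:**
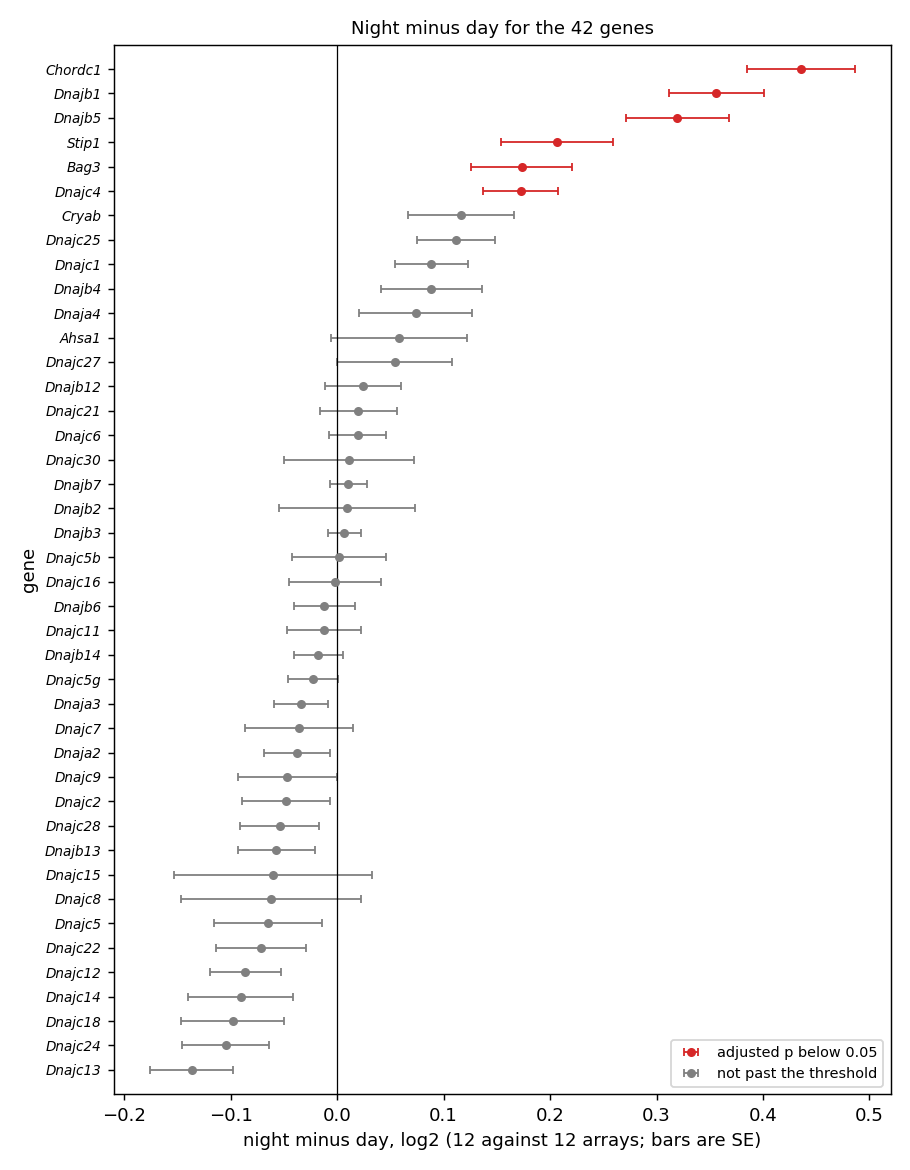
Night minus day on the log2 scale (horizontal axis; 12 dark against 12 light arrays, bars are SE) for each of the 42 members, ordered by size. Red points passed an adjusted p of 0.05. The 6 genes that passed, from Dnajc4 (0.17) to Chordc1 (0.44), all lie to the right of 0, and 21 of the 42 lie on each side of it.

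Between the mid-dark and mid-light times, ZT19 and ZT07, 4 members were higher at ZT19 against 0.888% of all genes, and 0 were lower against 0.703%. Chordc1 was 1.48-fold higher (log2 difference 0.57 ± 0.088, adjusted p = 0.00158) and Dnajc4 1.29-fold higher (0.37 ± 0.060, adjusted p = 0.00261). Dnajb1 was 1.28-fold higher (0.36 ± 0.077, adjusted p = 0.0190) and Dnajb5 1.26-fold higher (0.33 ± 0.084, adjusted p = 0.0455). The 4 arrays of ZT19 lay above the 4 of ZT07 in each of the 4 genes, and also in Stip1, which was not called. They lay below those of ZT07 in Dnajc13, Dnajc22 and Dnajc24, also not called. The share of all genes without such overlap was not counted. Dnajb5 lost its call without any of 15 arrays and in 3 other settings. The Dnajb1 call was lost without ZT07 replicate 4 (adjusted p = 0.0690), ZT19 replicate 1 (0.0540) or ZT19 replicate 3 (0.0603), and the count was then 2.

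The step across lights-off, ZT15 against ZT11, and the change within the dark phase, ZT23 against ZT15, were added after the time means had been seen. Dnajb1 rose 1.36-fold from ZT11 to ZT15 (log2 difference 0.44 ± 0.077, adjusted p = 0.0129) and was the only member called, against 0.113% of all genes that were higher at ZT15. Its call was lost without ZT11 replicate 3 (adjusted p = 0.0566) or ZT15 replicate 2 (0.0576). Bag3 differed by 0.36 ± 0.082 (adjusted p = 0.0902) and Chordc1 by 0.32 (adjusted p = 0.179), neither past the threshold. From ZT15 to ZT23, Dnajb14 rose 1.13-fold (0.17 ± 0.039, adjusted p = 0.0249), the only member called, against 0.5% of all genes that were higher at ZT23 (1.69% in either direction). That call was lost without ZT15 replicate 1, ZT15 replicate 3, ZT23 replicate 2 or ZT23 replicate 4, and without the 3 arrays of lowest weight (adjusted p = 0.255). Bag3 (-0.30 ± 0.082, adjusted p = 0.0676), Dnajb1 (-0.23, adjusted p = 0.175) and Chordc1 (0.26, adjusted p = 0.171) did not pass. These comparisons share arrays with each other and with those above.

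The chaperones that these co-chaperones serve were counted as related lists, in the 24-h test. The share of all genes with a rhythm was 7.61%, and with a peak in the dark 3.78%. Of 13 HSP70 and HSP110 genes, 7 had a rhythm (53.8%), 6 of them with a peak in the dark. Hsph1, which encodes the HSP110 exchange factor HSP105, changed 1.53-fold with a peak at ZT19.8 (adjusted p = 0.000338), inducible Hspa1b 1.99-fold at ZT18.6 and constitutive Hspa8 1.48-fold at ZT19.7. From ZT11 to ZT15, 3 of the 13 rose, against 0.113% of all genes: Hspa1b by 1.96-fold (adjusted p = 0.0174), Hspa1a by 1.89-fold (adjusted p = 0.000767) and Hsph1 by 1.51-fold (adjusted p = 0.00521). Hspa1a was chosen after its values were seen, and Hspa1a and Hspa1b are near-identical genes whose probes may read both. Of 18 HSP90 genes and HSP90 co-chaperones, 3 had a rhythm (16.7%). Fkbp5, the HSP90-binding immunophilin, changed 1.66-fold with an earlier peak, at ZT14.1 (adjusted p = 2.93e-06). The others were Hsp90aa1, the inducible cytosolic HSP90 (1.42-fold, ZT20.1, adjusted p = 0.00229), and Ahsa2 (1.19-fold, ZT20.0, adjusted p = 0.0268).

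Of 7 small heat shock proteins, Hspb3 (1.45-fold, ZT21.5, adjusted p = 0.00110) and Hspb1 (1.24-fold, adjusted p = 0.0112) had a rhythm (28.6%). Of 9 nucleotide exchange factors beside Bag3, only the mitochondrial Grpel2 passed (1.27-fold, adjusted p = 0.0470), a share (11.1%) near that of all genes. On the heat shock factor list, neither Hsf2, Hsf4 and Hsf5 nor Hsbp1, which encodes a protein that binds heat shock factor 1, passed in limma. Of these 4, only Hsbp1 had an unadjusted p below 0.05 (adjusted p = 0.0976). Of the 4 ER J proteins that the rule leaves out, Dnajc3, the ER J protein P58IPK, had a rhythm (1.26-fold, ZT21.6, adjusted p = 0.00566). Hsp90ab1, Stub1, Hspb2 and Hsf1 were not analysed here.

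**Figure D4:**
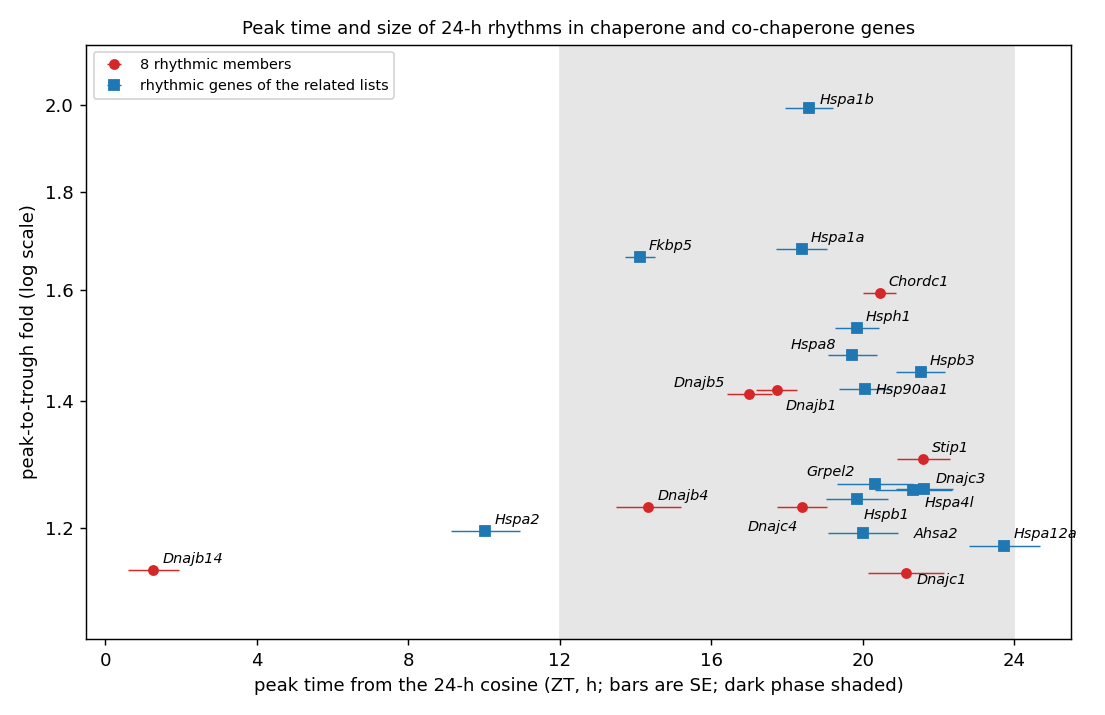
Peak-to-trough fold (vertical axis, log scale) against peak time in zeitgeber h (horizontal axis; bars are SE) for the 8 rhythmic members (red circles) and the rhythmic genes of the related lists (blue squares). The dark phase is shaded. All but Dnajb14 (ZT1.27) and Hspa2 (ZT10.0) lie in the shaded phase, with Chordc1 (1.59-fold) beside Hsph1 and Hspa8 near ZT20.

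Markers of macrophages and platelets also moved with the time of day. Over all genes, 7.61% had a rhythm, 1.89% were higher at night and 2.49% lower. Of 8 macrophage markers, 6 had a rhythm and 5 were higher at night, with a median difference of 0.183. The mean over the list ran from -0.0516 to 0.319 on the 12 dark arrays and from -0.368 to 0.0648 on the 12 light arrays. Of 4 measured platelet markers, 3 were higher at night, with a median difference of 0.419 and list means of 0.0265 to 1.32 in the dark and -0.362 to -0.0313 in the light. Of 8 ventricular cardiomyocyte markers, 1 had a rhythm and was lower at night. Of 5 atrial markers none passed in limma (median night-minus-day difference 0.168). The atrial list mean varied widely between arrays, from -0.176 to 0.775 in the dark and from -0.250 to 0.394 in the light. Smooth muscle and pericyte, skeletal muscle, and neuron and Schwann cell lists held no rhythm call and no night-day call. Of 6 endothelial and 5 adipocyte markers, 1 each had a rhythm and none a night-day call. Of 6 fibroblast markers, 2 had a rhythm, and 1 was higher and 1 lower at night. None of the 4 red cell markers was measured. No absolute level is kept, so markers at 0 could not be named, and the part of these cells in the night values of Chordc1, Dnajb1, Dnajb5, Stip1, Bag3 and Dnajc4 was not tested.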

How the data were processed

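Arrays were grouped by their labelled time; the replicate number serves only as a name. The deposited table holds 1 value per probe set and array, read as log2 differences because the authors' values have a median of 0 for each probe set (within 5e-07). How probes were summarised and normalised is not stated in the sources used. Of 34351 probe sets, 23521 named a single gene, 1814 that named several were left out, and probe sets of a gene were averaged (22180 genes). RefSeq (GRCm38.p6) held 23328 of these probe sets and changed 0 symbols. Tests were limma 3.58.1 (R 4.3.3) over all genes, with Benjamini-Hochberg adjustment and a threshold of 0.05: a 24-h cosine fit (21 residual degrees of freedom) and a fit of 6 time means (18) for the contrasts. On data drawn with known rhythms for the 24-h test of 22180 genes, 72% of amplitudes of 0.15 and 99% of 0.3 were recovered. The median amplitude of the 42 members was 0.0584, and recovery at amplitudes below 0.15 was not tested. The number of arrays limits precision.

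Named were all called members, the 2 smallest 24-h p-values of each role, the 5 additions, genes whose probe sets disagree, and up to 3 genes per related list. The members, role lists and tests were chosen with earlier results of these data known. Alternatives covered probe set choice, array centring, quantile normalization, array weights, a robust variance prior, protein-coding genes alone, the replicate number as a block and each array left out. The 3 arrays of lowest weight were left out together as an alternative chosen after seeing the data.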

Additional observations from a re-analysis of the deposited data

Results flagged for a closer look

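Over the 20 members given with values, 120 sets of 4 arrays (1 gene at 1 time) were screened for an array far from the other 3 (Dixon's criterion), and 11 were marked. Chance marks about 1 in 20 such sets. The values are log2 differences from the gene median.

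Stip1 at ZT07 had -0.5009 in replicate 4, with the others from -0.0371 to -0.0219, and Dnajb1 at ZT15 had 0.4754 in replicate 2, with the others from 0.2733 to 0.301. Dnajc1 at ZT03 had -0.1097 in replicate 4, below the others (0.0627 to 0.0953). Dnajc5b at ZT15 had 0.4406 in replicate 3 (others -0.0498 to 0.002), and Dnajc22 at ZT03 had 0.2722 in replicate 2 (others -0.042 to 0.0016).

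Dnajc12 was marked at ZT19, with 0.0333 in replicate 2 against -0.1614 to -0.1412, and at ZT23, with 0.006 in replicate 2 against -0.1064 to -0.0899. Dnajc13 at ZT07 had 0.1299 in replicate 1, and Dnajc24 at ZT19 had 0.0705 in replicate 3. Ahsa1 at ZT11 had 0.0752 in replicate 4, and Dnaja3 at ZT03 had -0.0196 in replicate 1.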

How the results depend on the processing

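For the members called in the night-day, ZT19-ZT07, ZT15-ZT11 or ZT23-ZT15 comparison, the difference kept its sign under every alternative run. Differences of other members entered only the counts of calls, and the small night-minus-day differences of Dnaja3 and Dnajb14, neither called, differ in sign between their probe sets (-0.099 to 0.0036 and -0.038 to 0.0032). With 1 array left out at a time, 7 to 9 members had a 24-h rhythm (1445 to 1829 of all genes), 5 to 8 differed among the times (895 to 1134), 4 to 7 between night and day (765 to 1243), and 2 to 4 between ZT19 and ZT07 (168 to 465, lowest without ZT07 replicate 4, with 233 without ZT07 replicate 3, 224 without ZT19 replicate 1 and 187 without ZT19 replicate 2). The 12-h count stayed at 0 members and ran from 0 to 3 for all genes, and it was 4 with arrays centred, 4 with array weights and 5 with protein-coding genes only. The ZT15 and ZT11 comparison gave 0 to 2 members (15 to 70 of all genes, lowest without ZT11 replicate 3 and highest without ZT11 replicate 1), 0 of them without ZT11 replicate 3 or ZT15 replicate 2, and 2 without ZT03 replicate 1, ZT03 replicate 2 or ZT15 replicate 1. Without the 3 arrays of lowest weight it gave 2 members and 74 genes. The ZT23 and ZT15 comparison gave 0 to 2 members (251 to 398 genes), 0 without ZT15 replicate 1, ZT15 replicate 3 or ZT23 replicate 2, 2 without ZT03 replicate 1, ZT03 replicate 2 or ZT19 replicate 3, 0 with the probe set of highest variance and 0 with array weights, and 201 genes without the 3 arrays of lowest weight. The causes were not tested.

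With the replicate number as a block, 7 members had a rhythm (Dnajc1 lost), 5 differed among the times, 6 between night and day (5 of them shared, Bag3 lost) and 3 between ZT19 and ZT07. Arrays with the same number had a median correlation of -0.0102 in their deviations from the time means, 5 of 60 pairs lay above 0.1, and 8 of 24 arrays matched their own number best, so the numbers were not taken to pair the mice. A filter on dim genes could not be run on centred values, which also limits what is known of signal over background.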

Other observations

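Members also differed in how much they varied between mice of the same time. Dnajb3 and Dnajb7 had a median SD within a time of 0.021 and 0.031, while Dnajc15 had 0.249 and Dnajc8 had 0.176. Dnajc8 spread most at ZT23, with an SD of 0.43 (n = 4). Since no level is kept, a transcript that does not vary cannot be told from one that is not detected.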
